A study of Mus musculus with 2 samples.

Results

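Ccl3/Ccl4-high and Ccl3/Ccl4-negative cells are the ends of the range of chemokine expression within 1 culture of mouse CD8+ T cells, the one stimulated with 20 pmol of the peptide-MHC (pMHC) named M9C. They were chosen from droplet barcodes by 4 rules. The leading hashtag had to be hashtag 2 with at least 20 counts and at least 80% of the barcode's hashtag counts. Mitochondrial genes could hold at most 10% of the unique molecular identifiers (UMIs, each 1 counted RNA molecule), and the total over genes had to lie between 4000 and 9000 UMIs. Of the 1179 cells that passed, the 336 with 8 or more UMIs of Ccl3 plus Ccl4 were the high cells and the 329 with none were the negative cells. The 514 cells with 1 to 7 UMIs stood between them. The culture held 1881 cells at any depth, and the matrix held 13439 barcodes over all conditions, of which 6303 passed the same hashtag, mitochondrial and depth rules.

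CD8+ T cells from the spleens of wild-type (WT) mice were kept for 30 h under 1 of 5 stimuli or rested, then stained per condition with 1 of 6 hashtag antibodies and run together in 1 lane of the 10x Genomics droplet system. The stimuli were M9C at 0.2, 2 and 20 pmol and the pMHC named L6F at 20 and 80 pmol, which differ in their peptide. Per the deposited condition table, the pMHC was biotinylated H-2Db, a mouse MHC class I molecule, given as a monomer on streptavidin plates. High and negative cells therefore share culture, stimulus, time point and library, and no label separates them. Live cells were sorted with propidium iodide, a dye that enters dead cells. Nothing used here states how many mice there were, their age, or the T cell receptor (TCR) of the cells. Each condition was 1 culture, so cells are not replicates and no p-value is given. The 95% intervals below cover counting error only.

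Ccl3 and Ccl4 encode chemokines that draw T cells, NK cells and monocytes, and CD8+ T cells secrete them after their TCR binds pMHC. TCR engagement runs through the kinase Erk, which induces immediate-early genes such as Egr1, through calcium and the transcription factor NFAT, and through NF-kB. Cytokines made by responding cells, such as interferon gamma, act back on the cells of a culture through receptors and STAT proteins.

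The cells were identified by the hashtag barcode of their antibody. The promoters of 4 genes are printed as examples, 2 from the chemokine and cytokine side and 2 from the interferon side. The hashtag barcode is a designed oligonucleotide, given as deposited. The promoters run from 250 bases before to 50 bases after the gene's start in RefSeq on GRCm38.p6, 5' to 3' on the gene's strand. In Ccl3 and Ifng, capitals mark GGAAA, the core that NFAT proteins bind, or its reverse complement, and TGANTCA, the motif of AP-1, which neither window held. In Igtp and Gbp2, capitals mark GAAA repeated with 2 bases of any kind between, an interferon-stimulated response element, and TTCNNNGAA, the motif of STAT dimers, on either strand. Gbp2 held no TTCNNNGAA. Motifs of the other side are left in lower case: Ifng held 1 TTCNNNGAA, Igtp 1 GGAAA and Gbp2 1 TGANTCA. The capitals therefore do not show a split of motifs by side.
Hashtag 2: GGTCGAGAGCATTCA
Ccl3 promoter (chr11:83649329-83649628, minus strand): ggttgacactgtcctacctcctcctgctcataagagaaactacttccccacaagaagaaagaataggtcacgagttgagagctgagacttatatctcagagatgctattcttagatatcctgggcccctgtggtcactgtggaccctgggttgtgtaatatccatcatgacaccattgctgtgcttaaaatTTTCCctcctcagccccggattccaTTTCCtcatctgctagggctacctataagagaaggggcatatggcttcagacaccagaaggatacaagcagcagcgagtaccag
Ifng promoter (chr10:118440796-118441095, plus strand): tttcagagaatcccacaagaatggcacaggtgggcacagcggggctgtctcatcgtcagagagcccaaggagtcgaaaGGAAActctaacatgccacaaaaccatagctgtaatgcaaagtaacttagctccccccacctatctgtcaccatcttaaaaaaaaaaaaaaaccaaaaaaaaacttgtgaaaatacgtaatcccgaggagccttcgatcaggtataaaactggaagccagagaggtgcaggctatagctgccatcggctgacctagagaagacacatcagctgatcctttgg
Igtp promoter (chr11:58199306-58199605, plus strand): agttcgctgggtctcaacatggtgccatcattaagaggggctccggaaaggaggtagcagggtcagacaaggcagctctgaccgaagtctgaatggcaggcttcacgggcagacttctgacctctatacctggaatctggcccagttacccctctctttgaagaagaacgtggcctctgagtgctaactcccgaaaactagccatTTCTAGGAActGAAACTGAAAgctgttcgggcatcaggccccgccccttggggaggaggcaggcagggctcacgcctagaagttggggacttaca
Gbp2 promoter (chr3:142620413-142620712, plus strand): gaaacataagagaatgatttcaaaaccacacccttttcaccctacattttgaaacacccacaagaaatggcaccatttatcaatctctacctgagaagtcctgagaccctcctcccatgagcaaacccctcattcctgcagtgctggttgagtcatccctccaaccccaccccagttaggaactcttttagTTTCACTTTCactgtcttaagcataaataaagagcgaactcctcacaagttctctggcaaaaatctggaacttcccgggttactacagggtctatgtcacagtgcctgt

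Ccl3 lies at chr11:83647844-83649355 on the minus strand and Ccl4 at chr11:83662584-83664683 on the plus strand of GRCm38, 13228 bases apart, in a cluster with Ccl5, Ccl6 and Ccl9. The high cells held a median of 14 UMIs of both genes together (quartiles 10 and 22, highest 81), with 2822 UMIs of Ccl3 and 3253 of Ccl4 in all. Ccl4 exceeded Ccl3 in 199 high cells, Ccl3 exceeded Ccl4 in 112, and both were equal in 25. Few high cells had only 1 of the pair, with 5 lacking Ccl3 and 1 lacking Ccl4. The high cells were 28.5% of cells in the window and held 79.0% of its 7688 Ccl3 and Ccl4 UMIs. These values chose the cells and are a description. The distribution had no gap at the limit, since 39 cells stood at 8 UMIs and 34 at 7, while 141 stood at 1.

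**Figure D1:**
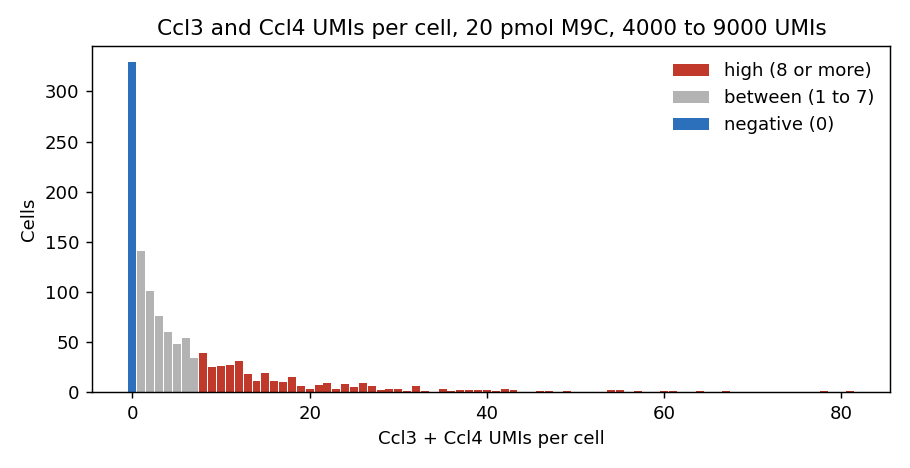
Number of cells (y axis) by Ccl3 plus Ccl4 UMIs per cell (x axis) in the 20 pmol M9C culture, for cells of 4000 to 9000 UMIs. The 336 high cells reach 81 UMIs, the 329 negative cells form the bar at 0, and the 514 cells between them leave no gap.

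Cells just inside and just outside the limits are given here without a test. Igtp, an interferon-inducible GTPase gene, stood at 74.2 CPM (counts scaled to the same total in every set of cells) in cells at 8 UMIs and 91.5 CPM in cells at 7, and at 154.5 CPM in cells at 1 and 222.2 CPM in cells at 0. Xcl1 stood at 82.0 CPM in cells at 8 and 91.5 CPM in cells at 7. Pdcd1 stood at 62.5 CPM at 8 and 96.0 CPM at 7, and Ifng at 15.6 CPM at 8 and 128.1 CPM at 7, the opposite direction to that between the groups.

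Both groups were CD8 T cells by their markers. The summed CPM of Cd3d, Cd3e, Cd8a, Cd8b1 and Trac was 1982 in high and 1924 in negative cells, and 334 of 336 high and 320 of 329 negative cells held at least 3 UMIs of these genes. The B cell genes Cd79a and Ms4a1, the NK genes Ncr1, Klrb1c, Klra8 and Klra4, and all 4 neutrophil genes were at 0 in both groups. The summed level was 3.003 CPM in high and 0.943 CPM in negative cells for CD4 T cell markers, and 3.43 CPM in high and 1.42 CPM in negative cells for macrophage and monocyte markers, and platelet and basophil or mast cell markers had 1 UMI each in all. Some marker sums were carried by a single gene that T cells can also transcribe: Ighm for B cells (432 UMIs in high and 557 in negative cells), Trdc for gamma-delta T cells (125 in high and 154 in negative cells) and Batf3 for dendritic cells (99 in high and 88 in negative cells). The NK sum, 11.2 CPM in high and 30.2 CPM in negative cells, was mostly Eomes (26 of 26 UMIs in high and 61 of 64 in negative cells). Erythroid genes stood at 0.858 CPM in high and 14.2 CPM in negative cells, and 7 negative cells account for most of this, as described with Car1.

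Depth was similar but not equal, with a median of 7198 UMIs and 2458 genes in high cells and 6600.0 UMIs and 2348 genes in negative cells. The mitochondrial share was 1.57% in high and 1.72% in negative cells, the ribosomal protein share 25.4% in high and 25.6% in negative cells, and the share of S, G2 and M phase genes 0.866% in high and 0.906% in negative cells. Sums over each group, without Ccl3 and Ccl4, came to 2330997 UMIs in high and 2120030 UMIs in negative cells, so a gene with no UMI could still reach 1.29 CPM in high and 1.42 CPM in negative cells. Levels below are CPM of these sums, and log2 ratios are high over negative.

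Of 5424 genes at 20 CPM or more in either group, 187 (3.45%) were called higher and 207 (3.82%) were called lower in high cells, where a call needs a ratio of 1.5-fold or more and an interval that excludes equality. The median log2 ratio over all 5424 genes was 0.00. Among genes at 50 CPM or more the calls were 76 higher and 76 lower. The number of genes at that level is not given, so no share stands beside these counts. The intervals are not adjusted over genes, so some calls, above all under 50 CPM, can come from counting error alone. By list, the calls on the high side were led by Erk-linked genes (10 of 15 counted), NFAT and calcium linked genes (6 of 10) and activation and costimulatory receptors (7 of 19). Calls of genes lower in high cells were led by interferon responsive genes (12 of 16) and naive and quiescence genes (10 of 19).

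**Figure D2:**
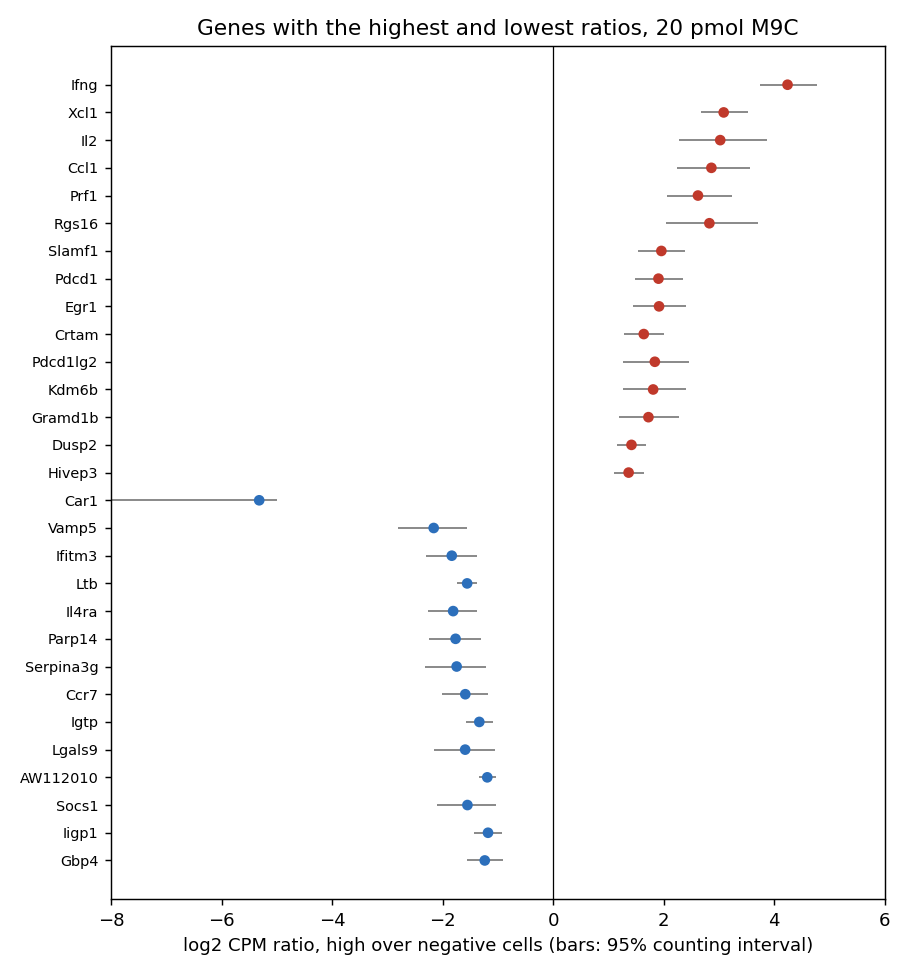
log2 CPM ratio of high over negative cells (x axis) with its 95% counting interval for the 15 genes with the highest ratios and 14 of the 15 with the lowest at 50 CPM or more, ranked by the interval bound nearest 0. Ifng stands at 4.24, and Car1 is set at the floor of 3 counts because no high cell held a UMI of it.

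The highest ratios belonged to secreted mediators of effector T cells. Ifng, interferon gamma, stood at 303.3 CPM in high cells (281.4 to 326.5) and 16.04 CPM in negative cells (11.1 to 22.4), a ratio of 18.9-fold (13.4 to 27.5). It was found in 85 high cells (25.3%) and 18 negative cells (5.47%), so most high cells had none, and 1 high cell held 96 of the 707 UMIs. Xcl1, which attracts dendritic cells that bear Xcr1, stood at 204.2 CPM in high and 24.1 CPM in negative cells, 8.49-fold higher (6.35 to 11.6), and was the most widespread of Ifng, Xcl1 and Il2, with a UMI in 43.8% of high and 10.6% of negative cells. Il2, which encodes the growth factor IL-2, stood at 61.3 CPM in high and 7.55 CPM in negative cells, 8.13-fold higher (4.84 to 14.6), with a UMI in 28.3% of high and 4.56% of negative cells. In rested cells of any depth, a UMI of Ifng, Xcl1 or Il2 was found in 0.379% of 1583 cells for each gene, at a median of 846 UMIs.

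Ccl1, a chemokine that binds Ccr8, was 7.28-fold higher in high cells (4.70 to 11.8), but rested on few cells. It was found in 8 high and 6 negative cells, 1 high cell held 110 of its 184 UMIs, and without that cell the log2 ratio was 1.55 against 2.86. Tnf, tumour necrosis factor, stood at 30.0 CPM in high and 20.8 CPM in negative cells (log2 0.53) and was not called. Other members of the list of chemokines and cytokines that were not called were Ccl5 (log2 0.37), Tgfb1 (0.34), Mif (0.01) and Lta (-0.26). Of 12 counted members 4 were called higher and 2 lower, with a median log2 ratio of 0.37. The lower ones were Ltb, lymphotoxin beta, at 149.7 CPM in high and 440.6 CPM in negative cells, and Il16, a chemoattractant cytokine, at 30.9 CPM in high and 66.5 CPM in negative cells. The cytokine genes were also counted together per cell. Of 8 genes (Ifng, Il2, Xcl1, Ccl1, Csf2, Tnf, Il3 and Lta), 2 or more had a UMI in 143 high cells (42.6%, 37.2 to 48.0%) and 37 negative cells (11.2%, 8.04 to 15.2%). None of the 8 had one in 75 high cells (22.3%) and 169 negative cells (51.4%). Csf2 had no UMI in either group.

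Genes downstream of Erk were the list with the most calls on the high side. Of 15 counted Erk-linked immediate-early and feedback genes 10 were called higher and 1 lower, with a median log2 ratio of 0.97. Egr1, an immediate-early transcription factor, stood at 83.7 CPM in high and 22.2 CPM in negative cells (3.77-fold, 2.73 to 5.31) and had a UMI in 38.4% of high and 10.9% of negative cells. Its relatives Egr2 and Egr3 had log2 ratios of 2.73 and 2.35. Dusp2 and Dusp6, phosphatases that act on MAP kinases, had log2 ratios of 1.42 and 2.47, with Dusp2 at 215.4 CPM in high and 80.7 CPM in negative cells. Spry1, an inhibitor of receptor signalling to Erk, stood at 22.7 CPM in high and 4.72 CPM in negative cells, and Fos, the AP-1 subunit, at 24.9 CPM in high and 4.72 CPM in negative cells. Jun, its partner, was the member called lower, at 21.9 CPM in high and 47.6 CPM in negative cells, and Junb was not called (log2 0.33).

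Among 10 NFAT and calcium linked genes 6 were called higher and 0 lower, with a median of 0.74. Rgs16, which limits G protein signalling, was 7.09-fold higher (4.13 to 13.1), in 23.8% of high and 3.65% of negative cells. The nuclear receptor genes Nr4a3 and Nr4a2 had log2 ratios of 1.97 and 1.25, and Orai1, the plasma membrane calcium channel, stood at 238.1 CPM in high and 133.0 CPM in negative cells. Of 13 NF-kB pathway genes 4 were called higher and 1 lower, with a median of 0.39. Rel, the c-Rel subunit, stood at 101.2 CPM in high and 49.1 CPM in negative cells, and the survival gene Bcl2a1b, which has near-identical copies, at 142.4 CPM in high and 78.3 CPM in negative cells. Icam1, an adhesion ligand, was called lower (log2 -1.06). Among 21 genes of the TCR complex and CD8, 4 were called higher and 0 lower, with a median of 0.04. These were Sla, an adaptor that lowers TCR levels (log2 1.42), the phosphatase gene Ptpn22 (0.74), the TCR alpha constant gene Trac (0.73) and the adaptor gene Lcp2 (0.72). Cd8b1 stood at 367.2 CPM in high and 469.3 CPM in negative cells (log2 -0.35) and was not called.

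Surface receptors of activated T cells were unequal. Pdcd1, the inhibitory receptor PD-1, stood at 104.2 CPM in high and 27.8 CPM in negative cells (3.75-fold, 2.81 to 5.07) and had a UMI in 50.9% of high and 14.0% of negative cells. Vsir and Cd160 were also called higher (log2 1.23 and 1.21), whereas Lag3, Btla and Ctla4 were not (0.47, 0.10 and -0.11), so that 3 of 7 counted inhibitory receptors were called higher, with a median of 0.60. Pdcd1lg2, a ligand of PD-1, stood at 52.3 CPM in high and 14.6 CPM in negative cells. Of 19 activation and costimulatory receptors 7 were called higher and 0 lower, with a median of 0.27. They were led by Slamf1, a self-binding receptor, at 108.1 CPM in high and 27.8 CPM in negative cells, and Crtam, an adhesion receptor of activated CD8 T cells, at 127.8 CPM in high and 41.0 CPM in negative cells. Tnfrsf9 and Tnfrsf4, costimulatory receptors of the TNF receptor family, had log2 ratios of 1.06 and 0.73. Cd69, an early activation marker, stood at 184.9 CPM in high and 212.7 CPM in negative cells (log2 -0.20).

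Among 9 cytotoxic genes 3 were called higher, with a median of 0.54. Prf1, the pore-forming protein perforin, stood at 84.1 CPM in high and 13.7 CPM in negative cells (6.15-fold, 4.15 to 9.42), and Gzmb, the protease granzyme B, at 151.0 CPM in high and 126.9 CPM in negative cells (log2 0.25), which was not called. Srgn, the granule proteoglycan serglycin, and Serpinb6b had log2 ratios of 0.69 and 0.94. Of 14 effector and memory transcription factors, Twist1, Hivep3 and Bhlhe40 were called higher (log2 2.45, 1.37 and 0.68) and Eomes lower (-1.37), with a median of 0.15. Irf4 and Tbx21 were not called, with log2 ratios of 0.25 and -0.02. Kdm6b, a histone H3 demethylase, and Gramd1b, a sterol transport protein, were among the 15 highest genes (log2 1.81 and 1.72).

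**Figure D3:**
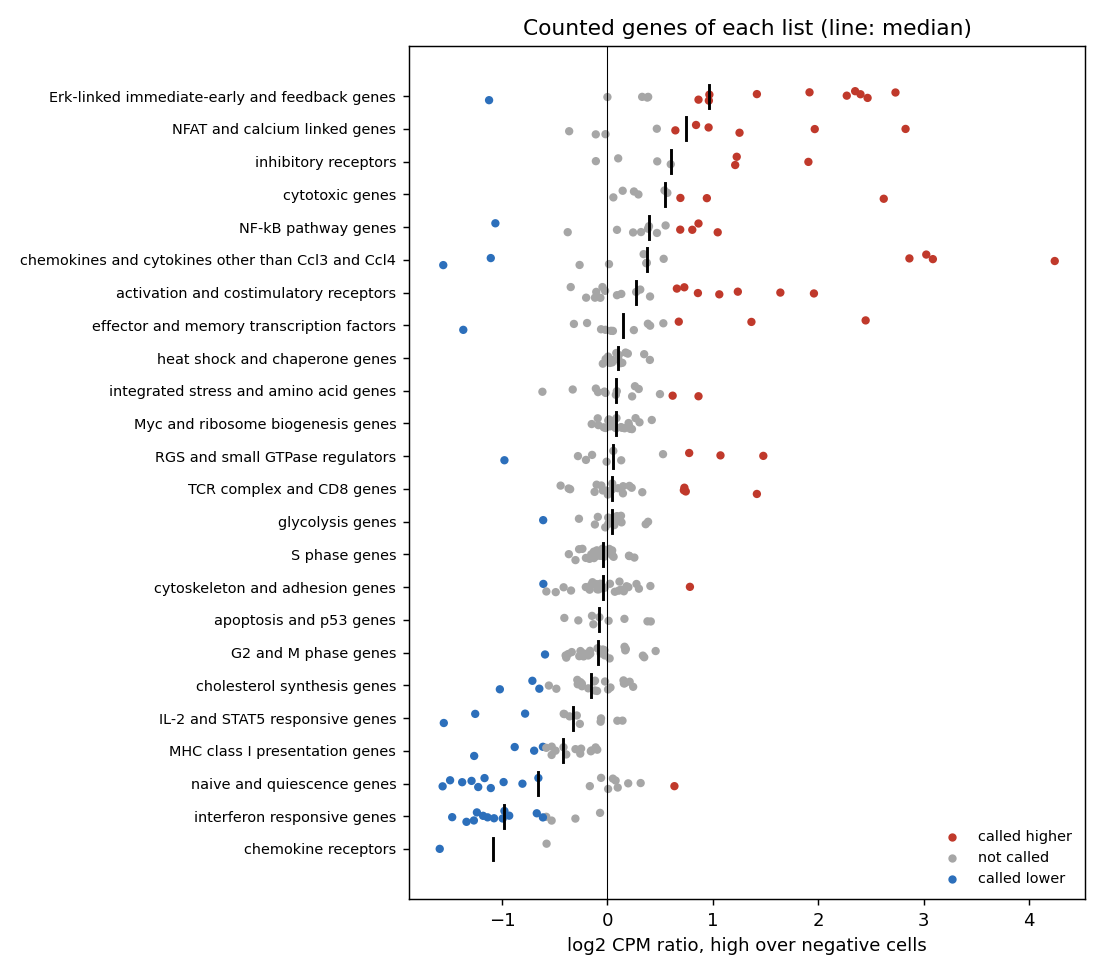
log2 CPM ratio of high over negative cells (x axis) for every counted gene of 24 lists (y axis), with genes called higher in red, called lower in blue and not called in grey, and the list median as a black line. The Erk-linked list has the highest median, 0.97, and the interferon responsive list lies wholly to the left of 0, with a median of -0.99.

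Interferon responsive genes were lower in high cells as a list. Of 16 counted members 12 were called lower and 0 higher, all 16 ratios were below 0, and the median log2 ratio was -0.99. Igtp stood at 87.9 CPM in high and 222.2 CPM in negative cells, and its relative Iigp1 at 85.8 CPM in high and 194.3 CPM in negative cells. Gbp2 and Gbp4, guanylate-binding proteins whose family members share sequence and may share reads, were lower too, with Gbp2 at 317.5 CPM in high and 632.1 CPM in negative cells and Gbp4 at 50.2 CPM in high and 118.4 CPM in negative cells. Irf1, a transcription factor induced by interferon, stood at 88.0 CPM in high and 173.1 CPM in negative cells. Parp14, an ADP-ribosyltransferase, and AW112010, an RNA of immune cells, were also among the 15 lowest genes (log2 -1.77 and -1.19).

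The 17 counted genes of MHC class I presentation all had ratios below 0, with a median of -0.42, but only 4 were called lower. These were Tap1 and Tap2, the peptide transporter (log2 -0.61 and -0.70), the immunoproteasome subunit gene Psmb10 (-0.88) and H2-Q6 (-1.26), which has close copies. Tap1 is also in the interferon responsive list. Of 12 genes responsive to IL-2 and STAT5, 3 were called lower and 0 higher, with a median of -0.32. They were Socs1, an inhibitor of cytokine and interferon receptors, at 18.02 CPM in high and 52.8 CPM in negative cells, Socs2 at 27.9 CPM in high and 66.5 CPM in negative cells, and the kinase gene Pim2 at 85.4 CPM in high and 146.7 CPM in negative cells. Il4ra, the alpha chain of the IL-4 receptor, stood at 24.9 CPM in high and 87.3 CPM in negative cells and had a UMI in 14.6% of high and 34.95% of negative cells.

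Naive T cell genes formed the other large group of lower calls. Of 19 counted naive and quiescence genes 10 were called lower and 1 higher, with a median of -0.66. Ccr7, the receptor that guides T cells into lymph nodes, stood at 29.6 CPM in high and 89.1 CPM in negative cells, with a UMI in 18.5% of high and 37.4% of negative cells. Satb1, a chromatin organiser, stood at 63.9 CPM in high and 143.4 CPM in negative cells. Tcf7, the transcription factor TCF1 of naive and memory cells, Foxo1 and Klf2, which keep T cells quiescent, and Bcl2, a survival gene, had log2 ratios of -0.81, -1.29, -1.56 and -1.11. Bach2, which restrains effector genes, was the member called higher (log2 0.63). Cxcr3, the other counted chemokine receptor, stood at 18.02 CPM in high and 26.9 CPM in negative cells (log2 -0.58) and was not called.

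Car1, an erythroid carbonic anhydrase and the lowest of the genes at 50 CPM or more, came from few cells. Car1 had no UMI in high cells and 109 UMIs in 7 negative cells, 39.95-fold lower in high cells at a floor of 3 counts in the high group and at least 31.9-fold lower by the 95% interval of the ratio. Ifitm1 and Car2, under 50 CPM and named after their values were seen, had 1 UMI each in high cells and 80 and 48 UMIs in negative cells. The 7 cells with Car1 also held 28 hemoglobin UMIs, 70 of the 114 Vamp5 UMIs and 122 of the 172 Ifitm3 UMIs of the negative group, and 6 of the 7 had fewer than 3 UMIs of the CD8 T cell markers. With cells of at least 3 marker UMIs only (334 high and 320 negative cells), Ifitm3 had a log2 ratio of 0.92 against -1.84 in all cells, and Vamp5 one of -0.36 against -2.16. Serpina3g and Lgals9 moved to -0.80 and -0.99, against -1.75 and -1.59. The calls in those cells were 184 higher and 194 lower, of which 172 and 185 were also called in all cells.

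Most other lists lay close to equality. No gene was called in 27 S phase, 25 ribosome biogenesis, 15 heat shock and 9 apoptosis and p53 genes, with medians of -0.05, 0.08, 0.10 and -0.08. Among 25 G2 and M phase genes Tpx2, a spindle factor, was called lower (log2 -0.59; median of the list -0.09), and among 15 glycolysis genes Pdk1 (log2 -0.61; median 0.04). Of 24 cholesterol synthesis genes 3 were called lower, among them Scd2, a fatty acid desaturase, at 55.3 CPM in high and 112.3 CPM in negative cells (median -0.15). Chac1 and Aldh18a1 were called higher among 14 integrated stress and amino acid genes (log2 0.86 and 0.62, median 0.08). Of 11 RGS and small GTPase regulators, Rgs2, Rgcc and Rgs1 were called higher (log2 1.48, 1.07 and 0.77) and Arhgap45 lower (-0.98), with a median of 0.06. Of 26 cytoskeleton and adhesion genes, the integrin gene Itgal was called higher (log2 0.78) and Vim, vimentin, lower (-0.61), with a median of -0.05. Some abundant genes moved by less than the limit of a call: Actg1, a cytoplasmic actin, at 3482 CPM in high and 2832 CPM in negative cells, and Hspa5, an endoplasmic reticulum chaperone, at 1221 CPM in high and 959 CPM in negative cells.

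The cells between the groups were read in the same way. Over 0, 1 to 3, 4 to 7, 8 to 19 and 20 or more Ccl3 plus Ccl4 UMIs (329, 318, 196, 238 and 98 cells), Xcl1 stood at 24.1, 71.0, 82.3, 140.6 and 349.4 CPM and Pdcd1 at 27.8, 58.2, 76.1, 94.4 and 126.8 CPM. Both were higher in each range than in the one before. Ifng did not follow that course, with 16.04, 57.7, 50.2, 67.2 and 842.4 CPM, so that 598 of the 707 Ifng UMIs of high cells were in the 98 cells with 20 or more. Egr1 stood at 22.2, 26.6, 71.4, 80.2 and 91.6 CPM. Igtp stood at 222.2, 133.2, 112.2, 101.8 and 56.3 CPM, with the largest single drop in CPM between 0 and 1 to 3 UMIs, and AW112010 at 482.5, 275.2, 240.8, 217.8 and 195.8 CPM. Ltb stood at 440.6, 221.0, 175.7, 148.0 and 153.5 CPM, and Ccr7 at 89.1, 68.1, 60.4, 35.2 and 16.9 CPM. Of the 15 highest genes 12 were higher in each range than in the last, and of the 15 lowest 6 were lower in each. The ranking compared the ends of this series, so a rise or fall between the ends was built in. The share over all counted genes was not computed.

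**Figure D4:**
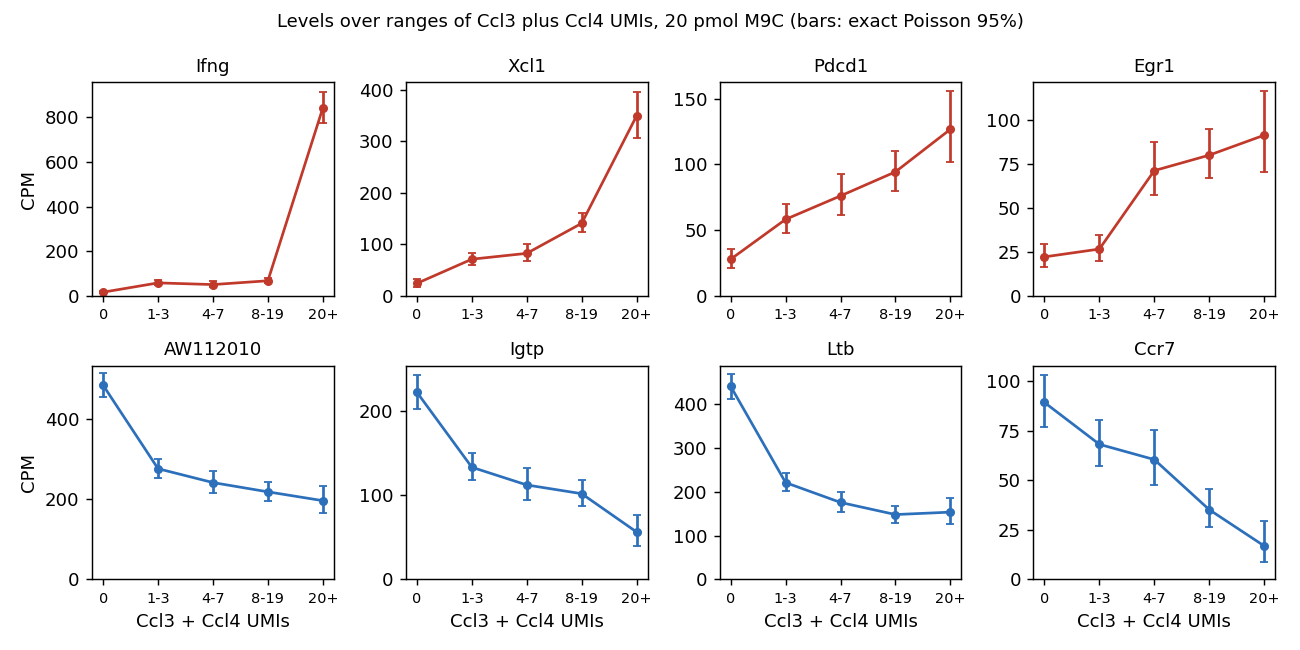
CPM (y axis) of 8 genes over 5 ranges of Ccl3 plus Ccl4 UMIs per cell (x axis) in the 20 pmol M9C culture, with exact Poisson 95% intervals as bars. Ifng reaches 842.4 CPM in the range of 20 or more and at most 67.2 CPM in the others, while Xcl1 and Pdcd1 are higher in each range than in the one before and AW112010, Igtp and Ccr7 are lower in each.

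The same split was made in the other 4 stimulated cultures. Their values did not enter the ranking that gave the 15 highest and 15 lowest genes, but the lists were chosen with earlier results of these data known. The share of cells that were high was 12.96% (128 of 988 cells, 10.9 to 15.2%) at 0.2 pmol, 18.1% (196 of 1085, 15.8 to 20.5%) at 2 pmol and 28.5% (336 of 1179, 25.9 to 31.2%) at 20 pmol M9C. It was 5.10% (82 of 1607, 4.08 to 6.29%) at 20 pmol and 2.65% (38 of 1436, 1.88 to 3.61%) at 80 pmol L6F, lower at the higher dose. Of rested cells only 8 reached the depth window, with 0 high, and at any depth 53 of 1583 (3.35%) held a Ccl3 or Ccl4 UMI, at most 2 in a cell.

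Of the 15 highest genes 14 had ratios above 0 in 4 of 4 other cultures and 1 in 3 of 4, and of the 15 lowest 12 were below 0 in 4 of 4 and 3 in 3 of 4. These are bare signs. Intervals excluded equality that way in 3 of 4 for Il2, Prf1 and Pdcd1lg2, 2 for Gramd1b and 1 for Ccl1. Among the lowest it was 3 for Car1, Ltb and Socs1, 2 for Vamp5, Ifitm3, Serpina3g and Iigp1, and 1 for Lgals9. The rest of both sets had 4. Car1, Vamp5 and Ifitm3 are counted among the lowest here, although at 20 pmol M9C 7 negative cells held most of their UMIs in that group. The split of the other cultures used no limit on CD8 T cell markers. Ccl1 had 1 UMI in high and 2 in negative cells at 0.2 pmol M9C and at 20 pmol L6F. At 80 pmol L6F the 38 high cells held 0 UMIs of Ccl1 and of Car1, against 32 and 51 UMIs in negative cells, and neither gene is given a direction there, since 3 counts in so few high cells would exceed the level in negative cells. For Ifng the log2 ratio was 3.46, 5.28 and 4.24 at 0.2, 2 and 20 pmol M9C and 4.72 and 6.85 at 20 and 80 pmol L6F. For Pdcd1 it was 1.54, 1.79 and 1.91 with M9C and 2.15 and 2.52 with L6F at those doses, and for Igtp -0.63, -0.99 and -1.34 with M9C and -0.79 and -1.25 with L6F. Ltb was lower by a varying amount, with log2 ratios of -0.48, -1.08 and -1.56 with M9C and -0.60 and -0.18 with L6F. The Erk-linked median was 0.96, 1.55 and 0.97 with M9C and 1.17 and 1.11 with L6F. All 16 interferon responsive genes were below 0 in each of the 5 cultures, with medians of -0.55, -0.80 and -0.99 with M9C and -0.78 and -0.77 with L6F. The naive median was nearer 0 with L6F (-0.07 and -0.10) than with M9C (-0.30, -0.40 and -0.66), and the difference was not tested. Cd69 and Cd2, not called at 20 pmol M9C, had the other sign or stood at 0.00 in the other cultures, and Icam1, called lower, was above 0 in 3 of the other 4.

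**Figure D5:**
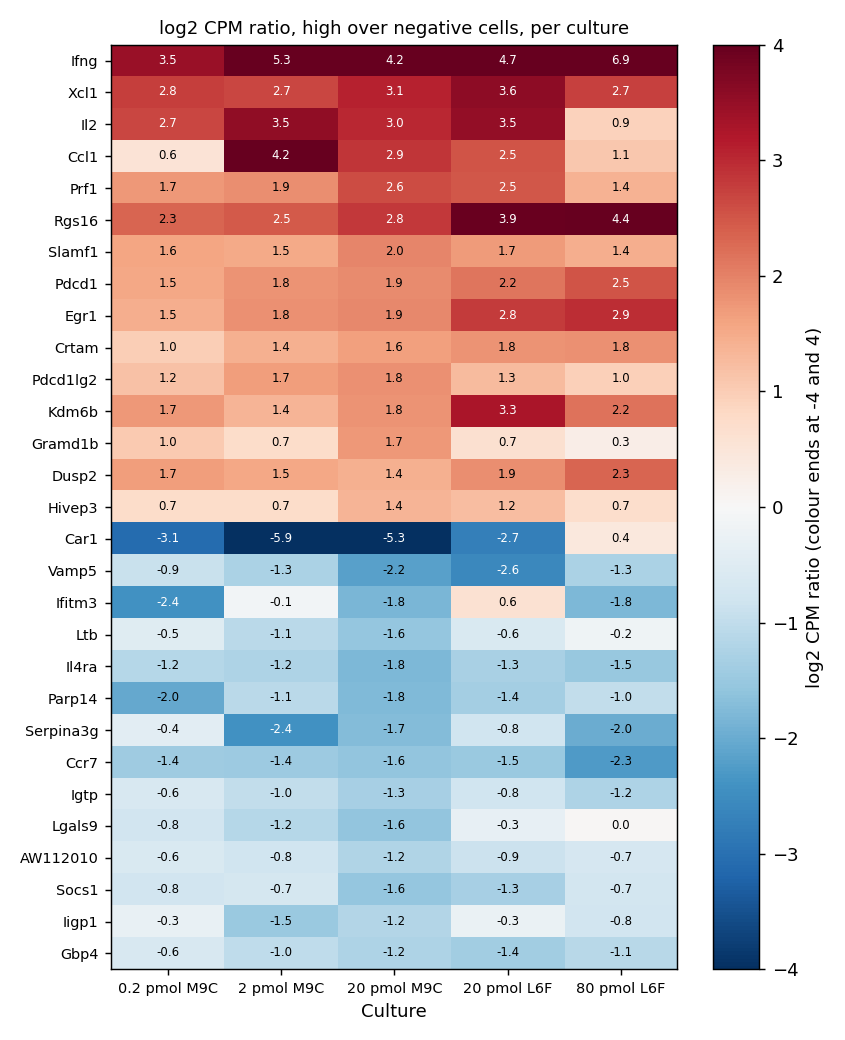
log2 CPM ratio of high over negative cells for the 15 highest and 14 of the 15 lowest genes of the 20 pmol M9C culture (y axis) in each stimulated culture (x axis, doses low to high for each pMHC), as numbers and colour. Ifng, Xcl1, Pdcd1 and Egr1 are above 0 in every column and Igtp and Ccr7 below 0 in every column, while Lgals9 at 80 pmol L6F and Ifitm3 at 20 pmol L6F have the opposite sign and Ccl1 and Car1 at 80 pmol L6F, with no UMI in high cells, are set at a floor that gives no direction.

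Over all genes, 98 of 187 called higher (52.4%) and 107 of 207 called lower (51.7%) had the same sign in 4 of 4 other cultures. For counted genes that were not called the shares were 18.02% of 2570 above 0 and 18.9% of 2460 below 0. The L6F cultures have few high cells, so their ratios carry more counting error.

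Antigen receptor V genes were read sparsely, and Trav14-1 and Trbv13-3 took most of the UMIs of their chain in both groups. Trav14-1 took 99 of 102 Trav UMIs in high cells (97.1%, 91.6 to 99.4%) and 39 of 46 in negative cells (84.8%, 71.1 to 93.7%). Trbv13-3 took 33 of 38 Trbv UMIs in high cells (86.8%, 71.9 to 95.6%) and 15 of 25 in negative cells (60.0%, 38.7 to 78.9%). Both shares were lower in negative cells. The intervals of the groups overlap for both genes, which does not show that the shares are equal, and the difference was not tested. The TCR alpha constant gene Trac was itself 1.66-fold higher in high cells. A UMI of either V gene was found in 94 high cells (28.0%) and 43 negative cells (13.1%). Within those cells the 15 highest genes all had ratios above 0, 13 with an interval that excluded equality, and a median of 1.63 against 1.92 in all cells. The ranking of the highest and lowest genes used these cells too, so their signs here are a description and not a check. Ifng had a log2 ratio of 4.90 there and Egr1 one of 0.96, while the interval for Pdcd1 included equality (0.62, -0.14 to 1.46). On the negative side the ratios were nearer 0. Of the 14 lowest genes with enough UMIs 12 were below 0 and 7 had intervals excluding equality, with a median of -0.57 against -1.57 in all cells. For the interferon responsive list the median was -0.39 against -0.99, with 13 of 16 below 0. Ccr7 had a log2 ratio of -1.39 there. Whether cells with other receptors contribute to the differences in all cells was not tested beyond these values.

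Promoter windows of the called genes were searched for 4 motifs. The interferon-stimulated response element (GAAA, 2 bases of any kind, GAAA) was found in the window of 3 of 149 genes called higher with a RefSeq promoter (2.01%) and 23 of 155 called lower (14.8%), against 175 of 4375 counted genes (4.00%) and 3.44% of all 32851 promoters. Of 12 counted interferon responsive genes with a promoter, 7 held it (58.3%), as the Igtp and Gbp2 sequences above show in capitals. TTCNNNGAA was found in 10.7% of genes called higher and 12.9% of those called lower, against 7.73% of counted genes. TGANTCA was found in 10.1% of genes called higher and 9.03% of those called lower, against 4.73% of counted genes. GGAAA, a short motif, was found in 63.1% of genes called higher and 65.2% of those called lower, against 64.3% of counted genes. Both strands were searched, a base pair can belong to more than 1 motif, and a match is a description of letters, not of binding.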

How the data were processed

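Per the submitters' processing notes, the authors used bcl2fastq and Cell Ranger 6.0.1 on GRCm38 (mm10). The annotation they counted on and how cells were called were not given in the sources used here. In the deposited matrix there are UMI counts per gene and counts per hashtag for each barcode, made by the authors, and the hashtag features were matched to the deposited condition table by their number. Barcodes whose leading hashtag had under 80% of hashtag counts were left out, which lowers the number of doublets of different cultures. Such doublets stay in where 1 hashtag still held 80% or more. Doublets within a culture cannot be seen, and no doublet caller was run. All cells shared 1 lane, with a transcriptome and a hashtag library, and no barcode was listed more than once.

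The counts of each group were summed and divided by the group's total without Ccl3 and Ccl4 (CPM), with exact Poisson intervals. Ratios have exact Clopper-Pearson 95% intervals, and shares of cells exact binomial ones. For a gene without UMIs in a group, 3 counts served as its floor there. Counted genes had 20 CPM or more in either group. The members and lists were chosen with earlier results of these data known. The text names the 15 highest and 15 lowest ratios by the interval bound nearest 0 at 50 CPM or more, without mitochondrial, antigen receptor, ribosomal protein or other cell types' marker genes and those lacking a name, and up to 2 members of every list in each direction. Other list members, and the promoters printed, were chosen after their values were seen. A few genes of these sets are counted but not reported singly. List symbols borne by more than 1 identifier were left out. Reads shared between close copies make Bcl2a1b, Ctla2a, Ly6c2, H2-Q6 and the Gbp genes uncertain. Promoters come from RefSeq on GRCm38.p6. Python 3.11.15, numpy 2.4.6, scipy 1.17.1, pandas 2.3.3 and matplotlib 3.10.9 were used, and the calculation was checked on simulated counts. These were drawn with Poisson error only, without spread between cells. Some unchanged genes were called there too, most of them under 50 CPM. Alternatives numbered 17, and 3 more were added after the data were seen.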

Additional observations from a re-analysis of the deposited data

How the results depend on the processing

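The 187 higher and 207 lower calls became 76 and 76 at 50 CPM, 313 and 448 with no filter on level, and 61 and 78 at a fold limit of 2. Of all settings, only the 187 and 207 calls are given with their share over all genes counted, so the counts are not compared as shares. With mean UMIs per cell in place of CPM, the median log2 ratio of all genes was 0.11 and the calls were 306 higher and 147 lower. Under other settings, which changed the Ccl3 and Ccl4 limits, the depth window, thinning, depth weighting, the hashtag and mitochondrial limits, the total, the centring and the cell cycle share, calls ranged between 146 and 248 higher and between 169 and 271 lower. None of these settings reversed a named gene in the 20 pmol M9C culture. With each cell thinned to 4000 UMIs and high cells at 6 or more, high cells made up 10.0%, 14.0% and 23.1% of the cultures given 0.2, 2 and 20 pmol M9C.

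Chosen after seeing the data, cells with 3 or more CD8 marker UMIs gave Ifitm3 a log2 ratio of 0.92. In cells with a Trav14-1 or Trbv13-3 UMI, 134 genes were called lower, and the log2 ratio was 0.56 for Vamp5, 0.63 for Il4ra, -0.065 for Bcl2a1b, -0.12 for Bach2, 1.19 for Ly6c2, 2.27 for Pdk1, -0.20 for Chac1, 0.10 for H2-Q6 and 0.29 for Vim. These are called genes whose sign changed. Others kept their sign in these cells but stood nearer 0, such as Cd160 (0.006 against 1.21), Trac (0.11 against 0.73), Psmb10 (-0.11 against -0.88), Satb1 (-0.13 against -1.17) and Xcl1 (1.73 against 3.09). Some stood farther from 0, such as Prf1 (3.85 against 2.62). Only 94 high and 43 negative cells enter there. The cause of these changes was not tested. No paired analysis was possible because both groups are cells of 1 culture and the labels give no replicate numbers. Depth limits the lower genes, as a count of 0 allows 1.29 CPM in high and 1.42 CPM in negative cells.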
